A study of Mus musculus with 9 samples.

Results

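The respiratory chain genes were chosen by symbol: every gene in the deposited tables named as a mitochondrially encoded mt-Nd, mt-Co, mt-Cytb or mt-Atp gene, or as a nuclear Nduf, Sdha to Sdhd, Uqcr, Cyc1, Cox4 to Cox8 or Atp5 gene. This gave 105 of the 17093 genes in any table, 13 on the mitochondrial chromosome and 92 in the nucleus. The nuclear members held 36 complex I subunits, 8 complex I assembly factors named Ndufaf, 4 subunits of complex II, 9 of complex III, 17 of complex IV (with Ndufa4 and its relative Ndufa4l2, which carry a complex I name), and 16 of ATP synthase. The remaining nuclear members were Cox7a2l, which helps join complexes into supercomplexes, and the processed pseudogene Atp5l2-ps. The mitochondrial members encode 7 subunits of complex I, 1 of complex III, 3 of complex IV and 2 of ATP synthase. Apart from Atp5l2-ps, which was not in the table of injured and sham arteries, every member was present in each table and passed the minimum mean of 10 normalised counts.

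The respiratory chain sits in the inner mitochondrial membrane. Complexes I and II pass electrons from NADH and succinate to ubiquinone, complex III hands them to cytochrome c, and complex IV gives them to oxygen, while ATP synthase uses the proton gradient built on the way to make ATP. A few core subunits are encoded and transcribed inside the mitochondrion and the rest in the nucleus, so the complexes are built from 2 genomes. Several complex IV subunits exist as a widely expressed form and a form restricted to certain tissues, such as striated muscle and brown fat.

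RNA was isolated from femoral artery media (the wall layer made of smooth muscle) of C57BL/6 mice, in 3 groups of 3 libraries. The groups were sham-operated arteries, arteries 14 days after a wire injury of the lumen, and arteries 14 days after the same injury in mice given VS-4718, an inhibitor of focal adhesion kinase (FAK), by gavage, 50 mg/kg at each of 2 daily doses over 2 weeks. They are called sham, injured and inhibitor-treated; the vehicle named in the labels was 10 mM citrate, and the labels do not say which mice other than the inhibitor-treated received it. Fat and adventitia were dissected off and the lumen was flushed with lysis reagent. The labels number the libraries and do not say whether each is a separate animal, so the p-values reflect the spread among these libraries only, and that spread may be technical.

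The libraries held 14676891 to 21248740 recovered reads. Levels below are normalised counts, reads divided by 1 factor per library over all 9 libraries. Markers of smooth muscle, summed over 10 genes, lay at 587873 to 765442 in sham, 168944 to 199451 in injured and 672715 to 691460 in inhibitor-treated libraries. Macrophage markers (12 genes) lay at 4020 to 5521, 35820 to 54492 and 6004 to 10317; no smooth muscle, macrophage or skeletal muscle marker was at 0 in any library. Endothelial markers (8 genes) lay at 14966 to 22637, 24470 to 29883 and 18648 to 19261, with 7 of 8 called higher with injury and 7 of 8 lower with the inhibitor. Skeletal muscle markers (20 genes) reached a sum of 640493 in injured replicate 2; replicates 1 and 3 of that group had 74384 and 39028, sham libraries 17082 to 43143 and inhibitor-treated libraries 8702 to 51994. Adipocyte markers (10 genes) were at 46414 in sham replicate 3, 21000 and 19369 in the other sham libraries, 55897, 34235 and 52164 in injured libraries and 15070 to 20430 in inhibitor-treated libraries. Hepatocyte markers (10 genes) were at 25358 in inhibitor-treated replicate 3 and at 77.1 to 200.9 in the other libraries, where up to 4 markers were at 0. Erythroid markers (9 genes with values) were at 39125 to 90788 in inhibitor-treated libraries and 90.1 to 371 elsewhere, with up to 2 at 0. Rn7sk, the 7SK RNA, which has no poly(A) tail, was at 16224 to 26973 in inhibitor-treated libraries and at 4.36 to 28.1 in the others, so treatment and a difference in library preparation cannot be told apart. Because of these values, results are also given without injured replicate 2, sham replicate 3 and inhibitor-treated replicate 3.

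Transcripts of the mitochondrial genome were lower in injured than in sham arteries and higher again with the inhibitor. The 13 mt- genes took 5.47%, 6.63% and 9.40% of reads in the sham libraries, 4.43%, 5.10% and 4.55% in the injured libraries, and 6.48%, 6.44% and 6.96% in the inhibitor-treated libraries. Every injured library lay below every sham library and below every inhibitor-treated library in this share, and sham replicate 3 was the highest of all. Whether injured media held fewer cells rich in mitochondria or less of this RNA per cell cannot be told apart in bulk RNA.

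Levels of the 13 genes fell in 2 ranges that the deposited values set far apart. Per kilobase of transcript, 7 genes stood at 59416 normalised counts or more in sham arteries. Their order was mt-Co1 (catalytic core of complex IV) at 312587, mt-Cytb (cytochrome b of complex III) at 239791, mt-Nd1 at 191787, mt-Nd2 at 134290, mt-Nd6 at 94626, mt-Nd4 at 89185 and mt-Nd5 at 59416. The other 6 stood at 163 to 1980 per kilobase: mt-Nd3, mt-Nd4l, mt-Co3, mt-Atp6, mt-Co2 and mt-Atp8. The split into 7 abundant and 6 scarce genes was made from these levels. Neighbours such as mt-Nd6 and mt-Nd4 differed by less than the spread among sham libraries. In normalised counts not divided by length, mt-Nd4 alone ran from 93332 to 161153 there.

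The scarce genes lie side by side on chromosome M (mt-Co2 from 7013 to mt-Nd4l ending at 10173, GRCm38), and a nuclear block on chromosome 1, 24611535 to 24615565, minus strand, holds annotated copies of 5 of them. In GENCODE M21, Gm28661 matched mt-Co2, Gm10925 matched mt-Atp6, Gm28437 matched mt-Co3 and Gm10222 matched mt-Nd4l, each at 100% identity over at least 98.99% of the gene. Gm28438 matched mt-Nd3 at 99.71%, with 1 difference in 345 bases. The same block also holds Gm28439, identical to 63.57% of mt-Nd4. The start of mt-Nd3 and of its copy is shown because it holds the only difference in the 345 bases aligned; the capital marks that base, T3C counted from 1 at the first base of mt-Nd3, in GRCm38 at chrM:9459-9491 (plus strand) and chr1:24613087-24613119 (minus strand).
mt-Nd3: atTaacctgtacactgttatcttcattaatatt
Gm28438: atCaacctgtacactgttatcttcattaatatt

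How reads were divided between mt-Nd3 and this copy differed between libraries. Of the summed level of both, mt-Nd3 received 35.7%, 58.7% and 95.9% in the sham libraries. It received 24.9%, 68.8% and 98.1% in the injured libraries and 34.1%, 26.1% and 32.3% in the inhibitor-treated libraries. The sham and injured shares covered almost the same range, whereas the inhibitor-treated libraries lay close together. The sum of both was 841, 940 and 1266 in sham, 614, 559 and 411 in injured, and 869, 927 and 922 in inhibitor-treated libraries, so the sums of injured libraries were below all others. For mt-Atp6 the share was 41.2% to 46.5% in sham, 35.7% to 44.1% in injured and 25.8% to 32.2% in inhibitor-treated libraries. For mt-Co2 it was 38.8% to 45.9%, 37.5% to 40.2% and 25.6% to 29.9%. For mt-Co3 it was 45.0% to 63.7%, 42.5% to 58.9% and 35.5% to 40.6%. In these genes every inhibitor-treated share lay below all others, while the shares of mt-Nd4l overlapped. The 6 scarce genes are therefore uncertain, since the counting of reads that match 2 places is not given in the sources used here. The annotated spans of mt-Atp8 and mt-Atp6 overlap, as do those of mt-Nd4l and mt-Nd4, and mt-Nd6 overlaps the end of mt-Nd5 on the opposite strand; the counting's use of strand is not given either.

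In injured against sham arteries, 3 of the 13 mt- genes fell and none rose by limma's moderated test with Benjamini-Hochberg adjustment over all genes (threshold 0.05); of all 16278 genes tested, 16.8% were called lower and 20.6% higher, 37.3% in all. The median log2 fold change of the 13 was -0.82, beside -0.00 over all genes, and all 13 lay below 0, from -0.51 in mt-Nd6 to -1.04 in mt-Nd4l. Without adjustment, 8 of 13 passed as lower and 0 as higher, where 3557 and 4069 of all 16278 genes did. In 10 of 13, every injured library was below every sham library, which held for 24.3% of all 16750 genes with levels.

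The called genes belonged to 3 complexes. The level of mt-Nd2, a membrane subunit of complex I, was 102491, 127850 and 187837 in sham, 67836, 84215 and 66856 in injured, and 118275, 118198 and 130800 in inhibitor-treated libraries. Its injured values did not overlap those of either other group. It fell by 0.90 ± 0.31 on the log2 scale (SE, limma adjusted p = 0.0473, n = 3 per group) and rose by 0.76 ± 0.17 from injured to inhibitor-treated arteries (adjusted p = 0.0122).

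The scarce gene mt-Atp6, a subunit of the proton channel of ATP synthase, was at 117, 143 and 216 in sham, 84.7, 76.8 and 68.7 in injured, and 130, 131 and 125 in inhibitor-treated libraries. It fell by 1.00 ± 0.25 (adjusted p = 0.0143) and then rose by 0.75 ± 0.16 (adjusted p = 0.0110). Its nuclear copy Gm10925 also fell, by 0.76 ± 0.21 (adjusted p = 0.0197), and rose by 1.45 ± 0.17 (adjusted p = 0.000769). The other called gene was mt-Co3, a core subunit of complex IV and also scarce, at 136, 183 and 299 in sham, 109, 123 and 93.6 in injured, and 170, 162 and 166 in inhibitor-treated libraries. It fell by 0.86 ± 0.29 (adjusted p = 0.0445) and rose by 0.62 ± 0.16 (adjusted p = 0.0200), with no overlap of injured libraries with the other groups. Both comparisons use the same injured libraries.

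The most abundant, mt-Co1, did not pass: it was at 369307, 447694 and 631838 in sham and 276217, 326416 and 286221 in injured libraries, a log2 fold change of -0.68 ± 0.44 (adjusted p = 0.259). Leaving out sham replicate 2, sham replicate 3 or any injured library left 1 of 13 called. Of all genes 21.0% were called lower without injured replicate 3, and the share is not given for the other single-library runs. Leaving out the 3 libraries that stood apart left none called by limma, at a median of -0.65, where 9.97% of all genes were called lower. Without adjustment 2 were lower then, where 2576 of all 16121 genes were. With all libraries, edgeR called 7 lower and DESeq2 called 9.

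From injured to inhibitor-treated arteries, 8 of 13 mt- genes rose and none fell, where 17.6% of the 16901 genes tested were called higher and 18.5% lower, 36.1% in all. They were mt-Nd2, mt-Nd4 and mt-Nd5 of complex I, mt-Cytb of complex III, mt-Co2 and mt-Co3 of complex IV, and mt-Atp6 and mt-Atp8 of ATP synthase. Of these, 4 were abundant and 4 scarce, the scarce ones uncertain for the reason given above. The median log2 fold change was 0.65, beside 0.01 over all genes, and 12 of 13 lay above 0, the ends being mt-Nd3 at -0.05 and mt-Atp8 at 0.97. In 11 of 13, every inhibitor-treated library was above every injured library, against 26.3% of all genes; 0 of 13 lay wholly below, against 25.6%. The exceptions were mt-Nd3 and mt-Nd4l. The level of mt-Nd5, the largest of these subunits, was 52217, 73002 and 73889 in injured and 110327, 106466 and 122429 in inhibitor-treated libraries; it rose by 0.79 ± 0.19 (adjusted p = 0.0173).

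The count was 0 without inhibitor-treated replicate 1 (adjusted p of 0.0503 to 0.166 for the 8 genes), and 1 without inhibitor-treated replicate 2 or 3; the median was then 0.62 to 0.66. The share of all genes called is not given for these runs. With all libraries, edgeR called 8 and DESeq2 called 9. Without the 3 libraries that stood apart, limma called 0, at a median of 0.70, where 9.43% of all genes were called higher. Without adjustment 7 were then higher, where 2722 of all 16592 genes were. Of the 7 copies with levels 5 rose as well: Gm28661 of mt-Co2 rose by 1.34 ± 0.15 (adjusted p = 0.000660), where mt-Co2 itself rose by 0.64 ± 0.20 (adjusted p = 0.0443). In these libraries Rn7sk and the erythroid markers were high, as given above, and their part in the result was not tested.

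A difference between inhibitor-treated and sham arteries was not detected in these transcripts. Of the 13 genes, limma called 0, edgeR called 0 and DESeq2 called 0, where 6.08% of the 16166 genes tested were called, 5.15% higher and 0.934% lower. Without adjustment 1 of 13 was lower and 0 higher in limma, where 1382 and 2028 of all genes were. The median log2 fold change was -0.12, and its sign turned without sham replicate 3 (0.11), without the 3 libraries that stood apart (0.09) and with scaling on ribosomal protein genes (0.02). The lone gene with no overlap was mt-Nd3, at 300, 552 and 1214 in sham and 296, 242 and 298 in inhibitor-treated libraries; its sum with the nuclear copy overlapped between the groups. Of the nuclear copies, Gm28437 of mt-Co3 was above sham by 0.74 ± 0.12 (limma adjusted p = 0.00873), and no other copy was called. The result for scarce genes rests on a division of reads that differed between these groups for mt-Atp6, mt-Co2 and mt-Co3. A call missed by this test does not show that the groups were alike.

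**Figure D1:**
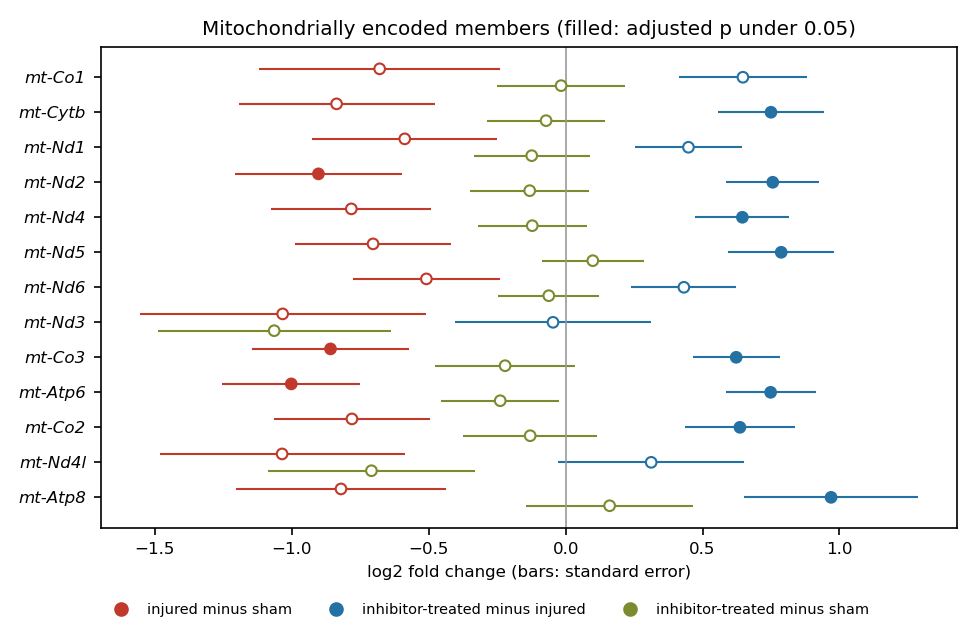
Log2 fold changes (horizontal axis) of the 13 mt- genes, ordered by mean sham level from mt-Co1 to mt-Atp8, with standard errors as bars; red is injured minus sham, blue inhibitor-treated minus injured and green inhibitor-treated minus sham, and filled points passed the adjusted threshold of 0.05. All 13 red points lie below 0 and 12 of 13 blue points above it, while mt-Nd3 and mt-Nd4l have the widest bars among the green points.

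Nuclear respiratory chain transcripts had smaller median differences than the mitochondrial ones in both comparisons with injured arteries, and the injured libraries differed among themselves. They took 0.87%, 0.82% and 1.08% of reads in sham, 0.88%, 1.00% and 0.72% in injured, and 0.83%, 0.84% and 0.81% in inhibitor-treated libraries. The median log2 difference of the 92 nuclear members from the sham mean was -0.09, -0.13 and 0.21 in sham, -0.19, 0.04 and -0.57 in injured, and -0.16, -0.12 and -0.21 in inhibitor-treated libraries. The injured libraries thus spread more widely than the groups differed, with replicate 2 near the sham level and replicate 3 far below it. For the mt- genes the same medians were -0.37, -0.08 and 0.48, then -0.85, -0.61 and -0.93, then -0.18, -0.15 and -0.06, with the injured libraries apart from the rest.

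**Figure D2:**
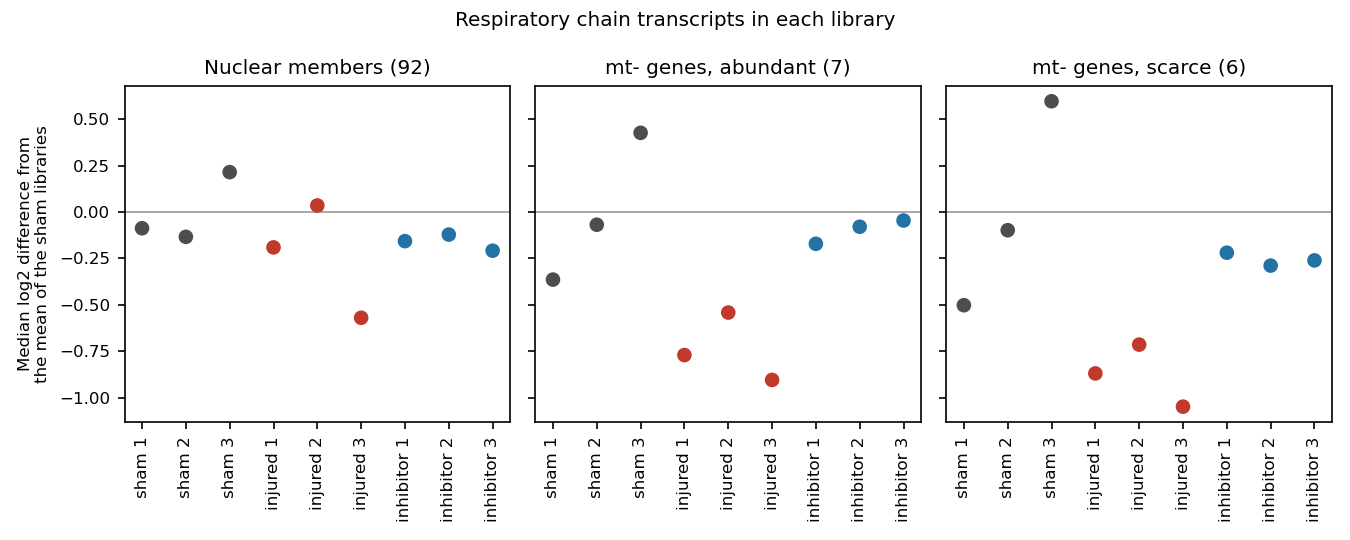
Median log2 difference from the mean of the sham libraries (vertical axis) in each of the 9 libraries, for the 92 nuclear members, the 7 abundant and the 6 scarce mt- genes. The nuclear medians of injured libraries run from -0.57 to 0.04 and take in 2 of the 3 sham values, whereas all injured mt- medians lie below every other library.

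Injured replicate 3 stood low in most nuclear members. Against the mean of the other injured libraries, 87 of 92 were lower there, with a median of -0.54; over all genes the median was -0.01. The difference was larger for short transcripts: -0.61 over 52 members under 1000 bases and -0.32 over 9 members of 2000 bases or more (Spearman rho with length 0.48 across members of this library, a description). Over all genes under 1000 bases it was -0.36. Against the rest of their group, rho was -0.42 in injured replicate 1, -0.45 in inhibitor-treated replicate 2 and 0.32 in inhibitor-treated replicate 3. In the remaining libraries rho was -0.05 to 0.12. Injured replicate 1, part of the reference for replicate 3, leaned the other way, at 0.28 in short and -0.10 in long members. Injured replicate 2, which had the highest skeletal muscle markers, was above the other injured libraries in the median by 0.38, and sham replicate 3, highest of the sham libraries in adipocyte markers, above the other sham libraries by 0.32. The part of transcript length and of these cell types in the values below was not tested.

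**Figure D3:**
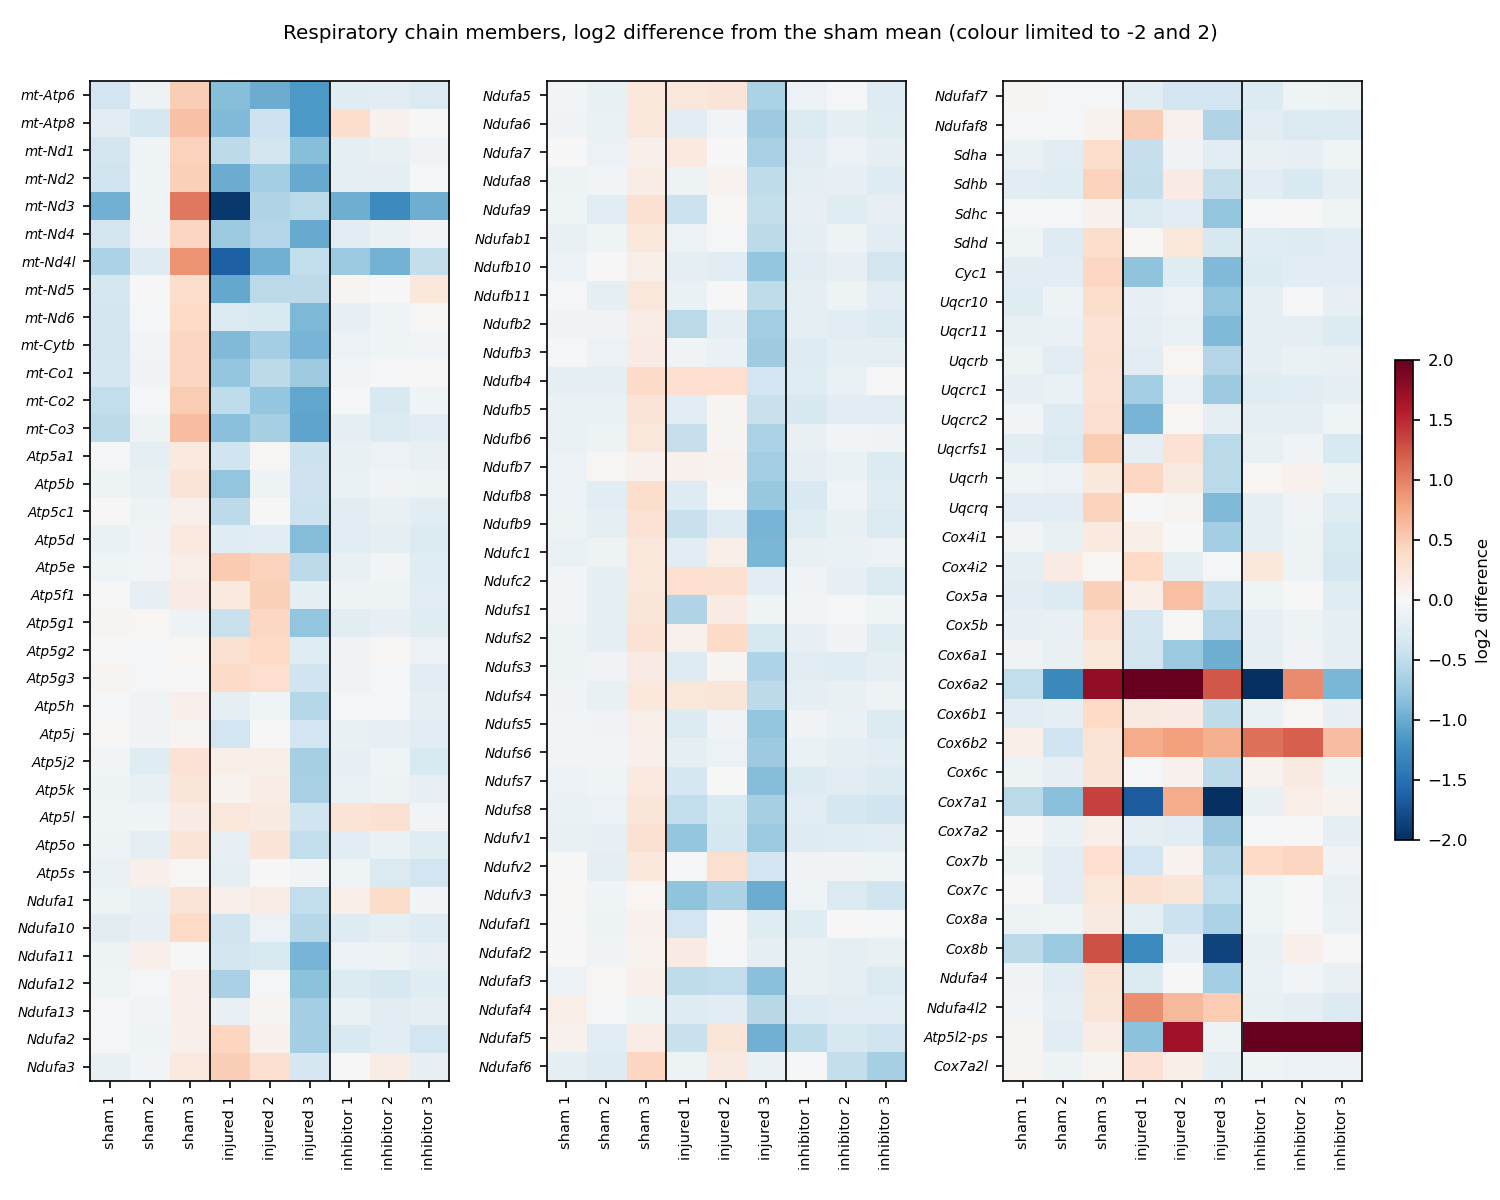
Log2 difference from the sham mean (colour, limited to -2 and 2) of all 105 members in the 9 libraries, mt- genes first and nuclear members by complex. Injured replicate 3 is blue through most of the nuclear rows, and Cox6a2 is red in all 3 injured libraries, at 1085 normalised counts in replicate 2.

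Per kilobase, Cox4i1, the common form of complex IV subunit 4, was the most abundant nuclear member at 8065 normalised counts in sham, 7217 in injured and 7043 in inhibitor-treated arteries. It was followed by Cox6a1 (7578 in sham), the ATP synthase beta subunit Atp5b (6838) and Cox8a, a small complex IV subunit (6514). The lowest protein-coding members in sham arteries were Cox6a2 at 67.8, Atp5s, an ATP synthase coupling factor, at 76.9 and the assembly factor Ndufaf6 at 83.4. The libraries' spread exceeded the steps between neighbours. In normalised counts not divided by length, Cox4i1 alone ran from 5527 to 7062 in sham and from 3842 to 6640 in injured libraries.

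In injured against sham arteries, 9 of 91 nuclear members fell and 2 rose, shares below the background of 16.8% lower and 20.6% higher among all genes. The median log2 fold change was -0.27 and 75 of 91 lay below 0, where 8180 of all 16278 genes did. In 18 of 92 every injured library was below every sham library and in 2 of 92 above, against 24.3% and 26.1% of all genes. Scaling on 75 ribosomal protein genes moved the median of all genes to -0.22 and that of the nuclear members to -0.49, with 24 lower and 0 higher (15.1% and 13.4% of all genes). Ribosomal protein genes were at median differences from sham of 0.50, 0.31 and -0.10 in the injured libraries.

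By complex, the members that fell were in complexes I, III and IV. Among 36 complex I subunits 5 fell and 32 lay below 0 (median -0.29): Ndufv1 and Ndufv3 of the NADH-oxidising module, Ndufs8, which carries iron-sulfur clusters, and the accessory subunits Ndufa11 and Ndufb2. Of the 8 assembly factors only Ndufaf3 was called, and all 8 lay below 0. Complex II had 0 called of 4 (1 lower without adjustment), with Sdhc, a membrane anchor, at -0.44 ± 0.16 (adjusted p = 0.0632). Among 9 complex III members Cyc1, cytochrome c1, fell by 0.65 ± 0.22 (adjusted p = 0.0499), and 8 lay below 0. ATP synthase had 0 called of 16 by limma (1 lower without adjustment), at a median of -0.15. In complex IV, Cox6a1 and Cox8a fell while Ndufa4l2 and Cox6b2 rose.

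The count turned on single libraries. It was 4 without sham replicate 1 and again without sham replicate 2, 5 without sham replicate 3, 7 without injured replicate 1 and 20 without injured replicate 2, of which 19 were lower. Without injured replicate 3 it was 7 higher and 5 lower (24.1% and 21.0% of all genes), at a median of -0.11. Without the 3 libraries that stood apart, 8 were lower and 2 higher (9.97% and 15.6% of all genes), at a median of -0.28. Ndufv3 was called in every alternative run. For the runs without sham replicate 1, 2 or 3 or injured replicate 1 or 2, the share of all genes called is not given. Those counts thus cannot be told apart from a change over all genes.

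From injured to inhibitor-treated arteries, 5 of 92 nuclear members rose and 2 fell, against a background of 17.6% higher and 18.5% lower. Those that rose were Ndufv3, Ndufv1, Ndufaf3, Cox6a1 and the pseudogene Atp5l2-ps, and those that fell were Ndufa4l2 and Cox6a2. In 9 of 92 every inhibitor-treated library was above every injured library and in 2 of 92 below, against 26.3% and 25.6% of all genes. The median log2 fold change was 0.11 and 59 of 92 lay above 0, where 8519 of all 16901 genes did. This direction rested on injured replicate 3: without it the median was -0.07, with 4 higher and 21 lower (23.5% and 23.7% of all genes). Without injured replicate 2, 12 were higher and 1 lower. Leaving out inhibitor-treated replicate 1, 2 or 3 left 1, 3 and 4 called. Shares of all genes are not given for these runs or for that without injured replicate 2. A change over all genes cannot be told apart there. Without the 3 libraries that stood apart, 7 were higher and 1 lower (9.43% and 10.4% of all genes), at a median of 0.25. Scaling on ribosomal protein genes gave 25 higher and 1 lower (20.0% and 8.78% of all genes), at a median of 0.46 where all genes moved to 0.35.

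By complex the counts were small: 2 of 36 complex I subunits rose, 1 of 8 assembly factors rose, and in complex IV 1 of 17 rose and 2 fell. Of all 16901 genes 17.6% were called higher and 18.5% lower, and 3895 were higher without adjustment. Limma called 0 of 4 in complex II (1 higher without adjustment), 0 of 9 in complex III (1 higher) and 0 of 16 in ATP synthase (0 higher and 0 lower). Sdhc was at 0.40 ± 0.16 (adjusted p = 0.0848) and Cyc1 at 0.41 ± 0.17 (adjusted p = 0.0969), neither called.

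In inhibitor-treated against sham arteries, 2 of 92 nuclear members rose, Atp5l2-ps and Cox6b2, and 0 fell by limma or by DESeq2 and edgeR. Without adjustment 2 were higher and 18 lower in limma, where 2028 and 1382 of all 16166 genes were. Yet 82 of 92 lay below 0, where 8271 of all 16166 genes did, with a median of -0.15. In 31 of 92 every inhibitor-treated library was below every sham library and in 2 of 92 above, against 14.0% and 14.1% of all genes. The smallest p among those below 0 was that of the complex I subunit Ndufa12, at 1077, 1122 and 1217 in sham and 941, 915 and 964 in inhibitor-treated libraries, a log2 fold change of -0.26 ± 0.07 (adjusted p = 0.0834). With ribosomal protein scaling the median was -0.013 where all genes stood at 0.13; without sham replicate 3 it was -0.04 with 4 called, and without the 3 libraries that stood apart -0.019 with 5 called, all higher (5.46% of all genes were called higher and 0.713% lower). Leaving out sham replicate 1 or 2, or inhibitor-treated replicate 1 or 2, left 1 called. For these runs and that without sham replicate 3 the share of all genes called is not given.

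The nuclear members called lower with injury and higher with the inhibitor were Ndufv3, Ndufaf3, Cox6a1 and Ndufv1; the 2 comparisons share the injured libraries. Ndufv3, an accessory subunit of the NADH-oxidising module (chromosome 17, 31520115 to 31531331, plus strand, GRCm38), was at 1926, 1802 and 1937 in sham, 1076, 1215 and 953 in injured, and 1781, 1546 and 1432 in inhibitor-treated libraries. Injured libraries lay below both other groups, and every inhibitor-treated library lay below every sham library. It fell by 0.82 ± 0.12 (adjusted p = 0.000965) and rose by 0.56 ± 0.13 (adjusted p = 0.0125); the rise had adjusted p = 0.054 without inhibitor-treated replicate 1. Its residual difference from sham, -0.24 ± 0.09, was not called (adjusted p = 0.169).

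Ndufaf3, which acts in assembling complex I (chromosome 9, 108565537 to 108567434, minus strand), was at 345, 378 and 399 in sham, 261, 264 and 210 in injured, and 336, 330 and 306 in inhibitor-treated libraries. It fell by 0.62 ± 0.15 (adjusted p = 0.0114) and rose by 0.41 ± 0.13 (adjusted p = 0.0479). Injured libraries again lay below both other groups, but the rise was lost (adjusted p of 0.053 to 0.15) on leaving out any single library, and the fall without the 3 libraries that stood apart (0.073).

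Cox6a1, the widely expressed form of complex IV subunit 6A (chromosome 5, 115345642 to 115348981, minus strand), was at 4073, 3860 and 5048 in sham, 3343, 2564 and 2182 in injured, and 3814, 4101 and 3779 in inhibitor-treated libraries. It fell by 0.70 ± 0.18 (adjusted p = 0.0145) and rose by 0.56 ± 0.16 (adjusted p = 0.0281). The fall had adjusted p = 0.053 without sham replicate 3 and 0.11 without the 3 libraries that stood apart, and the rise was lost without injured replicate 2 or any inhibitor-treated library (0.067 to 0.095).

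Ndufv1, the flavin-binding subunit at which NADH is oxidised (chromosome 19, 4007384 to 4012806, minus strand), was at 2135, 2100 and 2929 in sham, 1386, 1855 and 1413 in injured, and 1974, 1991 and 2021 in inhibitor-treated libraries. It fell by 0.62 ± 0.17 (adjusted p = 0.0204) and rose by 0.38 ± 0.12 (adjusted p = 0.0493). The fall was lost without sham replicate 3 (0.063) or injured replicate 1 (0.057), and the rise without any library other than injured replicate 2 (0.082 to 0.13).

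**Figure D4:**
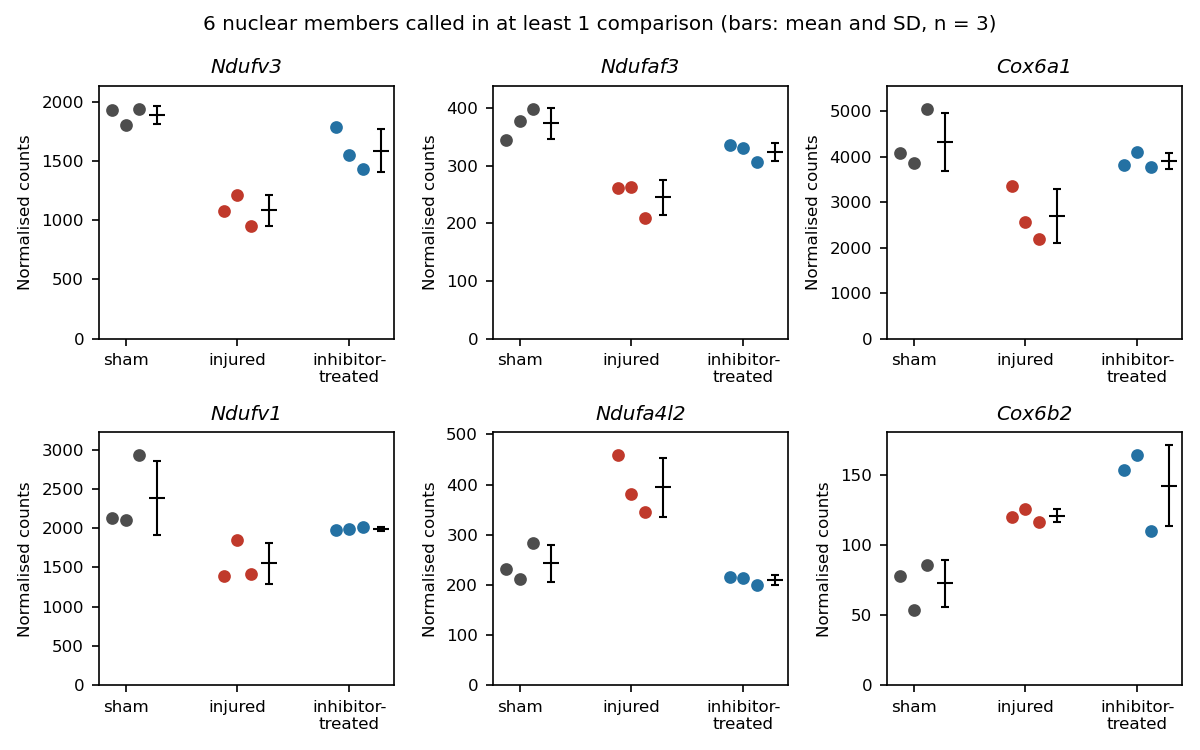
Normalised counts (vertical axis, from 0) of 6 nuclear members in the 3 groups; points are libraries and the bars beside them the mean and SD (n = 3). Ndufv3, Ndufaf3, Cox6a1 and Ndufv1 are lowest in the injured libraries, Ndufa4l2 is highest there, and Cox6b2 is lowest in sham.

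The bases upstream of these 4 genes are shown because factors that drive nuclear respiratory genes bind in such promoters. The 4 were picked for a fall with injury and a rise with the inhibitor, so their common direction follows from that choice. The sequences are from RefSeq (GRCm38.p6), 250 bases before the start site of the first promoter listed for a gene, cut where the gene annotated in GENCODE begins. Capitals mark matches, on either strand, to 5 motifs: that of NRF1 (nuclear respiratory factor 1), CCGGAAGT (ETS family), AAGATGGCG (YY1), TCAAGGTCA (ERR alpha) and ACGTG (the core of the hypoxia response element). They lie at chr17:31519865-31520114 (plus strand), chr9:108567437-108567686, chr5:115348982-115349208 and chr19:4012807-4013005 (minus strand).
Ndufv3: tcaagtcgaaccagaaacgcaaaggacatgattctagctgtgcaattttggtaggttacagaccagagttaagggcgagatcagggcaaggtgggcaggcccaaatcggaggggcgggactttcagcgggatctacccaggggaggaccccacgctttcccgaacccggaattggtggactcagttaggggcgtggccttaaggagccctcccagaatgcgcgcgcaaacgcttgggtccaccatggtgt
Ndufaf3: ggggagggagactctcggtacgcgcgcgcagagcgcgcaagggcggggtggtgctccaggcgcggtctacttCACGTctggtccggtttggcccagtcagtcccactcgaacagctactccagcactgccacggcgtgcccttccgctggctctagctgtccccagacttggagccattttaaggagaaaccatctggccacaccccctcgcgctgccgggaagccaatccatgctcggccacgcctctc
Cox6a1: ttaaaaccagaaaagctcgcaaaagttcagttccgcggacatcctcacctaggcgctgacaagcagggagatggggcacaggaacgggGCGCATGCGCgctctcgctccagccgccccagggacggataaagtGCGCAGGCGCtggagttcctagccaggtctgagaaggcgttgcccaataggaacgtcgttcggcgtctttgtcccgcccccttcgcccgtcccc
Ndufv1: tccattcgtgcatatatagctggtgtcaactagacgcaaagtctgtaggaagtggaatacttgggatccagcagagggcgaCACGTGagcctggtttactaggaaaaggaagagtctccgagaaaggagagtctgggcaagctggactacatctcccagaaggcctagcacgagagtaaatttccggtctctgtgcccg

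No motif was common to all 4 sequences. Cox6a1 held 2 NRF1 matches, Ndufaf3 held 1 ACGTG, and Ndufv1 held a CACGTG that matches ACGTG on both strands. Ndufv3 held none of the 5 in the bases shown, but 1 ACGTG in the promoter of 300 bases used next. Over the 73 of 92 nuclear members with a RefSeq promoter of 300 bases (250 before and 50 after the start), the NRF1 motif was in 18 (24.7%), against 9.28% of 11988 genes in the tables with a promoter. YY1 letters were in 9.59% against 2.83%, ERR alpha in 2 members (2.74%) against 0.250%, ETS letters in 6.85% against 7.45%, and ACGTG in 23.3% against 24.5%. No sequence printed holds matches to different motifs, so none overlap there, and a match is a description of letters, not a site.

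Isoform pairs were compared within each library. Ndufa4l2, a relative of the complex IV subunit Ndufa4 known as a target of hypoxia-inducible factors and expressed in mural cells (chromosome 10, 127514967 to 127517154), was at 232, 212 and 284 in sham, 458, 380 and 344 in injured, and 216, 214 and 199 in inhibitor-treated libraries. All injured libraries were above all others. It rose by 0.69 ± 0.17 (adjusted p = 0.0129) and fell by 0.90 ± 0.14 (adjusted p = 0.00257).

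The rise was lost without sham replicate 1 (0.053) or sham replicate 2 (0.059) and with ribosomal protein scaling (0.12), as was the fall with that scaling (0.052). Ndufa4l2 made up 7.71%, 7.80% and 7.48% of the pair with Ndufa4 in sham, 16.0%, 11.5% and 16.0% in injured, and 7.57%, 7.08% and 7.07% in inhibitor-treated libraries. This ratio needs no scaling between libraries, and its exact permutation p of 0.1, for injured against sham and for inhibitor-treated against injured, is the smallest that 3 against 3 libraries allow. Of 11 further targets of hypoxia-inducible factors tested, 0 rose and 3 fell with injury, against 20.6% and 16.8% of all genes. Without adjustment 2 were higher and 4 lower, where 4069 and 3557 of all 16278 genes were. The log2 fold changes of the 11 targets went both ways, 7 above 0 and 4 below, from -1.84 in Car9 to 0.98 (median 0.05). With the inhibitor 3 rose and 2 fell, against 17.6% and 18.5% of all genes, at a median of 0.02. Car9, a carbonic anhydrase, was lowest in injured arteries, falling by 1.84 ± 0.30 and rising by 2.25 ± 0.23 (adjusted p = 0.00170 and 0.000405).

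Cox6b2, the testis-enriched form of subunit 6B, was at 78.1, 53.9 and 86.0 in sham, 121, 126 and 117 in injured, and 154, 164 and 110 in inhibitor-treated libraries. All 6 libraries of the injured artery groups were above the sham libraries. It rose by 0.75 ± 0.23 with injury (adjusted p = 0.0312) and stood 0.98 ± 0.23 above sham in inhibitor-treated arteries (adjusted p = 0.0463), with no call between the latter and injured (0.22 ± 0.19, adjusted p = 0.404). Over the alternative runs the rise was kept in 8 and lost in 8. It was lost with ribosomal protein scaling, and without sham replicate 1 or 2 or injured replicate 1 or 2 (adjusted p of 0.062 to 0.10). The difference from sham was kept in 9 runs and lost in 7. Among these were the runs without sham replicate 1 or 2 or inhibitor-treated replicate 1 or 2 (0.11 to 0.16).

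Cox6a2, the striated muscle form of subunit 6A, was at 21.0, 11.7 and 106 in sham, 186, 1085 and 72.1 in injured, and 6.64, 58.7 and 15.4 in inhibitor-treated libraries. The single highest value was in injured replicate 2, the library with the highest skeletal muscle markers. Cox6a2 fell by 3.65 ± 1.07 from injured to inhibitor-treated arteries (adjusted p = 0.0340) and stood at 2.98 ± 1.03 from sham to injured, not called (adjusted p = 0.0514). Without injured replicate 2 the fall had adjusted p = 0.077, and it was lost also without injured replicate 1 or inhibitor-treated replicate 1 or 3 (0.071 to 0.11). Of 20 skeletal muscle markers, 12 were called higher and 1 lower with injury, against 20.6% and 16.8% of all genes. With the inhibitor 4 were called lower and 0 higher, against 18.5% and 17.6%, so the count of lower calls is near that share. Without adjustment 16 were lower and 1 higher there, where 4037 and 3895 of all 16901 genes were. None of these markers was at 0 in any library, and their part in the result was not tested.

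Cox7a1 and Cox8b, forms found in striated muscle and brown fat, were not called in any comparison. Cox7a1 was at 224, 183 and 848 in sham, 103, 547 and 79.0 in injured, and 296, 358 and 344 in inhibitor-treated libraries. Cox8b was at 533, 460 and 1861 in sham, 319, 690 and 212 in injured, and 695, 827 and 774 in inhibitor-treated libraries. In both genes sham replicate 3 and injured replicate 2 stood far above their groups. Cox8b was 1.09 ± 0.38 higher with the inhibitor than in injured arteries (adjusted p = 0.0614), and adjusted p was 0.0028 without injured replicate 2.

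Ucp1, the proton leak channel that marks brown fat, was at 996, 802 and 5325 in sham, 19.1, 24.7 and 33.5 in injured, and 993, 1370 and 1866 in inhibitor-treated libraries. It fell by 5.96 ± 0.63 (adjusted p = 0.000192) and rose by 5.71 ± 0.28 (adjusted p = 4.38e-05). The list of 10 adipocyte markers that holds Ucp1 went both ways: 2 were called higher and 3 lower with injury (median 0.65), and 4 higher and 6 lower with the inhibitor (median -1.08). The highest values of Ucp1, Cox7a1 and Cox8b were in the same library, sham replicate 3, and the part of fat in the values of the other members was not tested. The remaining pairs differed little: Cox4i2, an oxygen-regulated form, made up 1.02% to 1.80% of the pair with Cox4i1 over the 9 libraries, with exact permutation p of 0.5 to 0.7, and Atp5g3 made up 74.0% to 84.3% of the pair with Atp5g1.

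**Figure D5:**
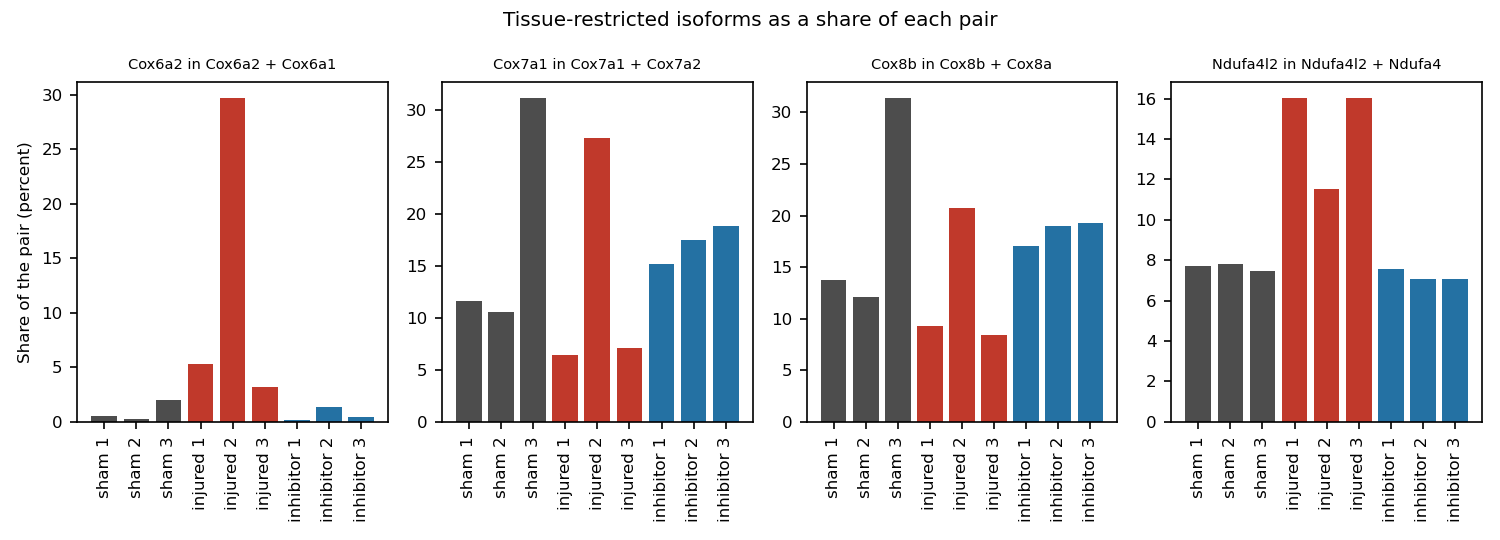
Share (percent of the summed normalised counts of a pair, vertical axis from 0) of Cox6a2, Cox7a1, Cox8b and Ndufa4l2 in each of the 9 libraries, coloured by group (dark sham, red injured, blue inhibitor-treated). Ndufa4l2 is at 11.5% to 16.0% in injured and 7.07% to 7.80% in all other libraries, while the shares of the other pairs peak in injured replicate 2 (Cox6a2, 29.7%) or sham replicate 3 (Cox7a1, 31.2%, and Cox8b, 31.4%).

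The pseudogene Atp5l2-ps (chromosome 11, 97768060 to 97768371) was at 3.00, 2.34 and 3.27 in sham, 1.19, 11.4 and 2.58 in injured, and 47.5, 44.9 and 20.0 in inhibitor-treated libraries. All inhibitor-treated libraries were above all others. It rose by 2.99 ± 0.72 against injured (adjusted p = 0.0163) and by 3.24 ± 0.46 against sham arteries (adjusted p = 0.00596), the former lost without inhibitor-treated replicate 1 (0.070) or 2 (0.065). Erythroid markers were high in the same libraries, and 9 of 9 rose against injured arteries; their part in the result was not tested. As a copy made from spliced RNA, it may share reads with its parent gene.

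Other mitochondrial pathways were read from lists of genes outside the membership rule, to be set beside the shares of all genes called: 16.8% lower and 20.6% higher with injury, and 18.5% lower and 17.6% higher with the inhibitor. Of 16 genes of the citric acid cycle, which feeds electrons to complexes I and II, 5 fell with injury and 0 rose, all 16 lay below 0 (median -0.36), and 4 rose and 0 fell with the inhibitor. Suclg2, a succinyl-CoA ligase subunit, was at 1536, 1383 and 1483 in sham, 846, 752 and 798 in injured, and 1401, 1233 and 1361 in inhibitor-treated libraries, with no overlap of injured libraries with the rest. It fell by 0.88 ± 0.10 and rose by 0.74 ± 0.10, and Ogdh, of the oxoglutarate dehydrogenase complex, fell by 0.63 ± 0.16 and rose by 0.58 ± 0.11.

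Of 41 assembly factors and related proteins 1 rose and 4 fell with injury, and 2 rose and 2 fell with the inhibitor; Surf1, needed to assemble complex IV, fell by 0.66 ± 0.10 and rose by 0.52 ± 0.10. Of 24 genes of mitochondrial gene expression and biogenesis, 2 fell with injury, Polrmt, the mitochondrial RNA polymerase, by 0.67 ± 0.14 and Lrpprc, which stabilises mitochondrial mRNA, by 0.36 ± 0.12. Polrmt rose by 0.53 ± 0.12 with the inhibitor, as did Ppargc1a, a coactivator of mitochondrial genes, by 0.55 ± 0.17. Of 78 mitochondrial ribosomal protein genes 8 fell and 0 rose with injury, and 3 rose and 2 fell with the inhibitor.

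Of 19 electron carriers and uncouplers, 5 fell and 1 rose with injury and 4 rose with the inhibitor; Coq10b, a ubiquinone-binding protein, fell by 0.81 ± 0.14 and rose by 0.66 ± 0.11. Ucp2, an uncoupling protein abundant in leukocytes, was at 667, 658 and 989 in sham, 4089, 4183 and 2907 in injured, and 2008, 5219 and 5957 in inhibitor-treated libraries. It rose by 2.27 ± 0.20 with injury and stood 2.40 ± 0.38 above sham with the inhibitor. In the latter comparison 3 of 12 macrophage markers and 8 of 9 erythroid markers were called higher and 0 of either lower. Of all genes 5.15% were called higher there and 0.934% lower. The part of these cell types in the level of Ucp2 was not tested. The lists are set beside the same 5.15% and 0.934% for inhibitor-treated against sham arteries. Limma called 0 of the citric acid cycle genes there (0 without adjustment) and 0 of the assembly factors (1 higher and 4 lower). It called 0 of the expression genes (1 lower without adjustment). Of the mitochondrial ribosomal protein genes 2 were called lower and 0 higher (27 and 0 without adjustment). Without adjustment, 1382 of all 16166 genes were lower and 2028 higher in that comparison.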

How the data were processed

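RNA was sequenced from 9 libraries of arterial media. The authors deposited 3 tables, each comparing a pair of groups, with normalised counts per gene in 6 libraries (a signal: reads divided by 1 factor per library, as read from the values), a log2 fold change and p-values, per the file headers. Per the submitters' processing notes the build was mm10, also called GRCm38; no aligner, counter or strand setting is given in these sources. Dividing by the value of 1 read returned whole reads for 100% of values (within 0.01 of a read), the same in both tables that hold a library. Libraries of a group had Pearson correlations of log2 levels of 0.953 to 0.987 and chi-square per degree of freedom of 11.2 to 101, so none repeated another within sampling noise. Levels across groups were rescaled with 1 median-of-ratios factor per library over 16750 genes present in at least 2 tables.

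Each comparison was fitted in its own table with limma 3.58.1 (R 4.3.3) on log2(normalised count + 1), group as the only term, trended variance, two-sided, genes with a mean of at least 10, Benjamini-Hochberg over all genes, threshold 0.05. The plan was edgeR if the files held raw counts and limma if not; limma was used, the deposited values being normalised. Fold changes on this scale understate low genes. The fit was tested on simulated data. Alternatives were a pseudocount of 5, no filter, edgeR 4.0.16 and DESeq2 1.42.0 on the recovered reads, ribosomal protein scaling, quantile normalisation, 9 libraries in 1 fit, a replicate block, leaving out libraries, and the authors' own deposited p-values with their log2 fold changes. Annotation was GENCODE M21; nuclear copies were found with BLAST 2.17.0 (at least 50% of the mt- gene), keeping the copy of highest identity. Errors are SE for fold changes. Named in full were the isoform pairs, the extremes of the mt- genes (others of them chosen after their values were seen), and for each comparison nuclear members among the 8 smallest p; of other lists, at most 3 genes per comparison. The members and lists were chosen with earlier results of these data known, and the list of mitochondrial ribosomal proteins, the split of the mt- genes by level and the untailed RNAs after the data were seen.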

Additional observations from a re-analysis of the deposited data

How the results depend on the processing

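Medians of nuclear members kept their sign in injured against sham arteries under every alternative, as did both mt- medians that involve injured arteries. Calls were less stable. The count of nuclear members called in injured against sham arteries, 11, was 24 with ribosomal protein scaling, 18 with all 9 libraries in 1 fit, 6 with the replicate block, and 4 to 20 on leaving out a library. The mt- count there, 3, was 7 with edgeR, 9 with DESeq2, 9 with ribosomal protein scaling, 6 with quantile normalisation, 7 with 9 libraries in 1 fit, 9 in the authors' deposited table, 0 without the 3 libraries that stood apart, and 1 to 3 on leaving out a library. From injured to inhibitor-treated arteries the nuclear count, 7, was 26 with ribosomal protein scaling (median 0.46) and 1 to 25 on leaving out a library; its median, 0.11, was -0.07 without injured replicate 3. The mt- count, 8, was 5 with quantile normalisation, 4 with the replicate block, 0 without the 3 libraries that stood apart, and 0 to 8 on leaving out a library, and the mt- median was 0.99 with ribosomal protein scaling. Against sham the nuclear count of inhibitor-treated arteries, 2, was 1 with edgeR, with quantile normalisation and with the replicate block, 5 without the 3 libraries that stood apart, and 1 to 4 on leaving out a library, and the nuclear median was -0.013 with ribosomal protein scaling. That mt- median, -0.12, was 0.02 with ribosomal protein scaling and 0.09 without the 3 libraries. The cause of these changes was not tested, and leaving out libraries also leaves fewer samples. Of the runs that leave out 1 library, only those without injured replicate 3 have the share of all genes called given above. In the others a count of members cannot be set beside that share. Named members kept direction and status, called or not called, in 420 of 560 repeats. They lost the call in 134 and gained it in 6, and none reversed. The 420 include members not called in the main fit that stayed uncalled, such as Ndufa12 against sham in all 16 of its repeats. The losses thus fell on the called members only, and their calls were less stable than the 420 of 560 would give. Replicate numbers did not pair the libraries: same-numbered libraries had correlations of deviations of -0.08 to 0.19, so the replicate block joins samples that share only a number. With 3 libraries per group, missed calls do not show equal levels.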
